A study of Homo sapiens with 6 samples.

Results

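The nuclear genes of respiratory complex I and of its assembly were followed in T98G cells, a human glioblastoma line, after depletion of the protein kinase DYRK1A. Genes were taken by name: every entry of the spike-in normalized gene table whose symbol was NDUFA, NDUFB, NDUFC, NDUFS, NDUFV, NDUFAB or NDUFAF followed by a number. The rule found 46 of the 23026 genes in the table, of which 38 were named as subunits and 8 as assembly factors (NDUFAF1 to NDUFAF8). It used no measured value.

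Both groups were T98G cells infected with a lentivirus and selected with puromycin. The shControl group (3 libraries, 1A, 1B and 1C) received a control hairpin, and the shDYRK1A group (3 libraries, 1A, 1B and 1C) received a hairpin against DYRK1A. No other hairpin against DYRK1A is described for these libraries. Loss of DYRK1A and any other effect of that hairpin therefore cannot be told apart here. Drosophila Kc167 cells served as a spike-in, added per T98G cell ahead of RNA extraction so that human RNA could be scaled to fly RNA, and stranded mRNA libraries were sequenced. The study's methods state in general that experiments were repeated independently, while the labels do not say whether the 3 libraries of a group came from separate infections, so p-values measure the spread between these libraries.

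Complex I passes electrons from NADH to ubiquinone and pumps protons across the inner mitochondrial membrane. Its matrix arm holds the flavin and the iron-sulfur clusters, its membrane arm holds the proton pumps, and the core subunits of the membrane arm are encoded by the mitochondrial genome (the MT-ND genes). Accessory subunits surround the core, and assembly factors help to build the complex without staying in it.

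A pair of scalings is used throughout, since they answer different questions. With spike-in scaling a value is a human transcript level relative to the fly RNA, and so per cell added. With TMM scaling, the trimmed mean of M-values over human genes, a value is relative to the bulk of the human transcripts. Fewer cells entering a library and less RNA in each cell cannot be told apart in these bulk samples. A gene was tested when its mean spike-in normalized count over all 6 libraries exceeded 393, which is 10 per 1000000 of the mean library total. This filter left 9697 genes. A gene was called when the adjusted p of edgeR's quasi-likelihood test was below 0.05. Levels in CPM are reads per 1000000 reads counted on human genes in the same library.

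The libraries held 33708297 to 42154438 reads counted on human genes, and the spike-in size factors ran from 0.821 to 1.03 in shControl and from 1.06 to 1.21 in shDYRK1A. Across all tested genes the median log2 fold change (shDYRK1A over shControl) was -0.40 with spike-in scaling and 0.00 with TMM scaling. The library shDYRK1A 1B stood apart, with 15.6% unmapped reads against 8.44% to 11.9% in the others. DYRK1A had 2227, 2234 and 1895 normalized counts in shControl and 1482, 1056 and 1285 in shDYRK1A, with no overlap between the groups. Its level in shDYRK1A was 60.2% of that in shControl (log2 fold change -0.73, SE 0.15, edgeR adjusted p 5.33e-06). Of the markers checked for the line, the mesenchymal genes VIM, CD44 and FN1 stood at 613 to 1970 CPM, the neural genes NES and OLIG2 at 1.06 to 2.02, and GFAP and SOX2 had 0 to 4 reads per library.

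Sequences near the starts of the member genes are shown first, because they are what several members share outside the naming rule. RefSeq promoter windows of the GRCh38.p14 build, 250 bases before to 50 after the gene start, were found for 39 of the 46 members. NDUFA4, NDUFAF6, NDUFB5, NDUFB9, NDUFC2 and NDUFS5 were among those not matched. A member was counted when any of its windows held the searched string, and members below the filter were included. The percents below count windows, of which a gene can have several. Member counts and these percents are therefore not like for like. The palindrome TCTCGCGAGA, which the study associates with DYRK1A at promoters, was searched for first. It was found for 0 of the 39 members and in 0.424% of all 35116 promoter windows, or 0.85% of those of tested genes. Only the exact string was searched, while the study graded motif matches by p-value and also listed poorly conserved ones. Weaker forms were not searched here, and a string this rare does not set the members apart from other genes. The 0 of 39 therefore does not show that the members lack the motif. The string CCGGAAGT, bound by ETS factors, was found for 2 of the 39 members (NDUFS1 and NDUFA13) and in 4.14% of all windows, or 8.43% of those of tested genes.

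A string bound by NRF1, a factor known for driving nuclear genes of mitochondrial proteins, was searched as GCGCATGCG on both strands. It was found for 6 of the 39 members and in 1.92% of all windows, or 3.47% of the windows of tested genes. The 6 stretches follow, each 5′ to 3′ along the gene's strand, with the matched letters in capitals; in NDUFS7 they are the reverse complement, CGCATGCGC.
NDUFA5 (chr7:123557958-123557986, minus strand): tatgcccatcGCGCATGCGtcaatttttc
NDUFA8 (chr9:122159765-122159793, minus strand): gttgccggatGCGCATGCGcaggcgccgt
NDUFB4 (chr3:120596167-120596195, plus strand): agagcacttcGCGCATGCGcatatcaccg
NDUFS6 (chr5:1801351-1801379, plus strand): cagaagccgtGCGCATGCGttagcgctaa
NDUFS7 (chr19:1383823-1383851, plus strand): ttccggtttcCGCATGCGCtccgagccgc
NDUFAF5 (chr20:13785014-13785042, plus strand): agccgcgctgGCGCATGCGcacaaaaagc

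The string AAGATGGCG, which contains the core bound by YY1, was found for 7 of the 39 members and in 1.75% of all windows, or 4.03% of those of tested genes. All 7 matches lay after the gene start. In 6 of the 7 the ATG inside the match was a start codon annotated by GENCODE v29. The letters of the match from that ATG on were therefore also the first coding bases. The exception was NDUFAF8. The 7 stretches are printed the same way, and the strings of this and the preceding paragraph occur together only in NDUFS7, without overlapping.
NDUFA6 (chr22:42090729-42090757, minus strand): atgctttggcAAGATGGCGgggagcggcg
NDUFA7 (chr19:8321343-8321371, minus strand): tcgcggacggAAGATGGCGtccgccaccc
NDUFA9 (chr12:4649114-4649142, plus strand): attgtgggaaAAGATGGCGgctgccgcac
NDUFB8 (chr10:100529836-100529864, minus strand): gaagaaggtgAAGATGGCGgtggccaggg
NDUFS4 (chr5:53560650-53560678, plus strand): tgcctgcagcAAGATGGCGgcggtgtcaa
NDUFS7 (chr19:1383914-1383942, plus strand): ggccgaggccAAGATGGCGgtgctgtcag
NDUFAF8 (chr17:81239317-81239345, plus strand): ggacggacctAAGATGGCGgcctccaggg

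The filter kept 40 of the 46 members, 32 subunits and all 8 assembly factors. The 6 subunits below it were NDUFV2, NDUFA7, NDUFA11, NDUFA13, NDUFB8 and NDUFC2. NDUFV2, an iron-sulfur subunit of the matrix arm core, had only 24 to 39 reads per library, and NDUFA7 had 1 to 10. NDUFA13 had 16 to 37 reads, NDUFB8 100 to 165, NDUFA11 191 to 269 and NDUFC2 206 to 273. Each of these 6 has an annotated gene on the same strand that covers part of its principal GENCODE v29 transcript: 82.9% of NDUFV2, 75.9% of NDUFA7, 71.7% of NDUFB8, 67.0% of NDUFA11, 44.1% of NDUFA13 and 17.1% of NDUFC2. Among the 32 subunits kept, the largest such share was 16.7%, in NDUFV1, and 29 had none. Read pairs assigned to no gene because they fell on more than one made up 3.42% to 3.59% of each library; how many came from these genes was not tested. The levels of the 6 are therefore uncertain, and they have no fold change here.

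Per kilobase of principal transcript, the subunits stood above the assembly factors. In shControl the median over the 32 subunits was 3510 normalized counts per kilobase and that over the 8 assembly factors was 507. NDUFB9, of the distal membrane arm, was the highest at 12782 ± 1647 normalized counts per kilobase (SD, n = 3), followed by NDUFS5 at 8729 ± 1238. NDUFS8 (6984 ± 749), NDUFB4 (6913 ± 559), NDUFA1 (6279 ± 838) and NDUFB10 (6026 ± 614) came next in level per kilobase, and within these 4 each differed from the next by less than the larger of their SDs. The lowest were NDUFA9 at 62.7 ± 4.31 and NDUFV3 at 201 ± 19.9, whose principal transcripts are 8363 and 4676 bases long in the annotation. Their levels per kilobase depend on that choice of transcript. The same limit holds for NDUFS1 (11819 bases) and NDUFAF5 (5529 bases), and so for the comparison of subunits with assembly factors. NDUFAF2 was the highest assembly factor at 2822 ± 431 normalized counts per kilobase, above NDUFAF8 at 1926 ± 398 by more than either SD.

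With spike-in scaling, subunits of complex I stayed closer to their control level than most genes did. Of the 32 subunits, 6 were lower in shDYRK1A (NDUFB5, NDUFA5, NDUFB6, NDUFS1, NDUFS3 and NDUFA10), 0 were higher and 26 did not pass the test, while 63.4% of all tested genes were called lower and 1.08% higher. Of the 8 assembly factors, 3 were lower (NDUFAF4, NDUFAF7 and NDUFAF2), 0 were higher and 5 did not pass. The median log2 fold change was -0.17 for subunits, -0.32 for assembly factors and -0.40 for all genes. With a further limit of a log2 fold change below -0.7, 2 members were called, NDUFB5 and NDUFAF4, against 14.3% of all tested genes. The 6 subunits depended on the libraries: the count was 16 when shControl 1C was left out, and 3 when any library other than shControl 1C and shDYRK1A 1A was left out. NDUFB5, NDUFB6 and NDUFA5 passed in all 6 fits that left out 1 library, as did NDUFAF2, NDUFAF4 and NDUFAF7. Each library has 1 size factor for all its genes, so any error in that factor is shared by every member. A member that did not pass, or whose groups overlapped, was therefore not shown to be unchanged.

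**Figure D1:**
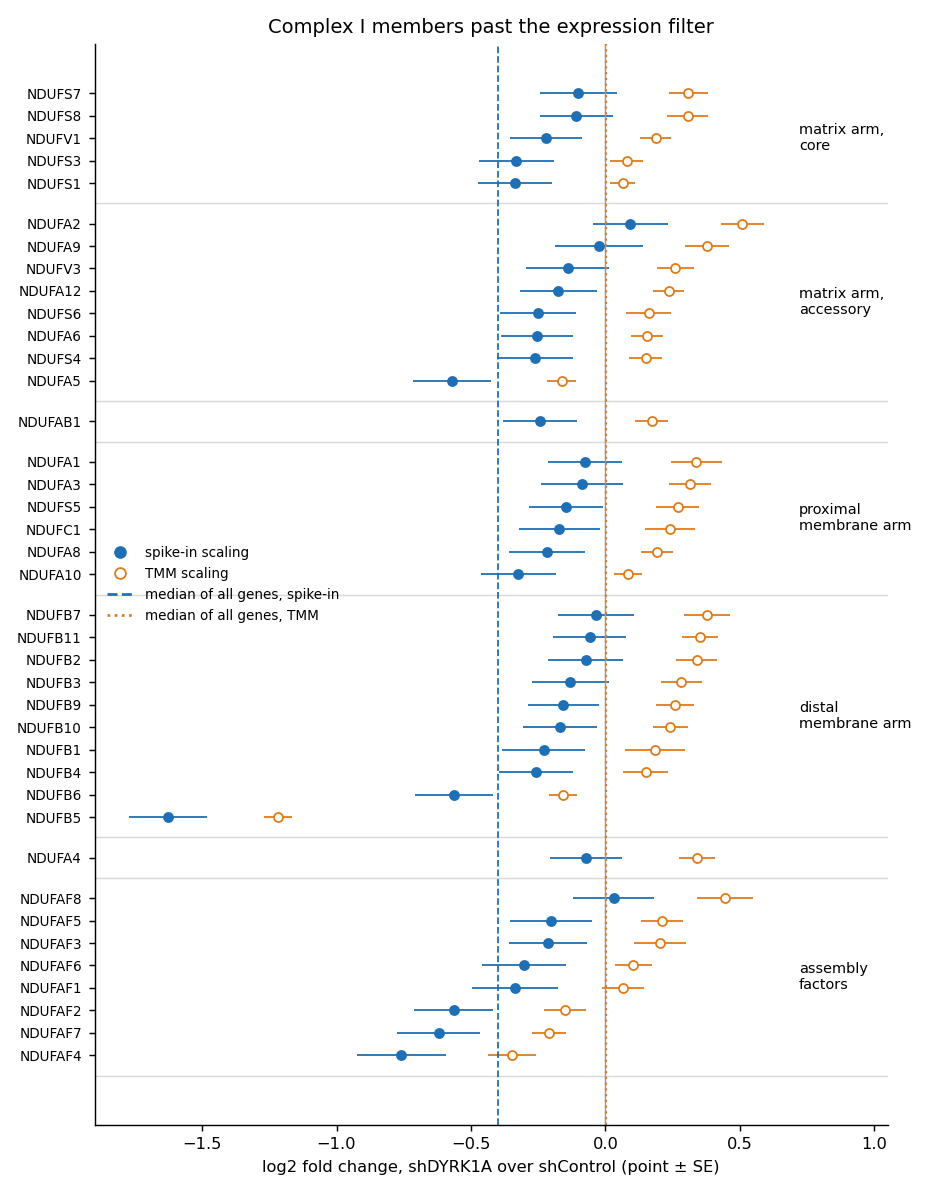
Log2 fold change of 39 of the 40 members past the filter, shDYRK1A over shControl (3 libraries each), by place in the complex; filled points are spike-in scaling, open points TMM scaling, bars 1 SE, and vertical lines the medians of all tested genes. Most subunits lie to the right of the median of all genes under either scaling, and NDUFB5 stands far to the left.

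Relative to the bulk of human transcripts, most subunits rose. With TMM scaling 22 of the 32 subunits were higher and 3 were lower (NDUFB5, NDUFA5 and NDUFB6), against 27.3% of all tested genes higher and 28.6% lower. Among assembly factors 2 of 8 were higher (NDUFAF5 and NDUFAF8) and 2 were lower (NDUFAF4 and NDUFAF7); leaving out 1 library gave 1 to 3 higher and 1 to 3 lower, with NDUFAF5 passing in 3 and NDUFAF7 in 4 of the 6 fits. When 1 library was left out with TMM scaling, 17 to 26 subunits were higher, while NDUFA5 and NDUFB6 passed as lower in only 2 and 1 of the 6 fits and NDUFB5 in all 6. The median log2 fold change with TMM scaling was 0.24 for subunits and 0.08 for assembly factors, beside 0.00 for all genes. The subunit median was 0.16 without shDYRK1A 1B, the lowest of the 6 such fits, and 0.30 without shDYRK1A 1C, the highest. For assembly factors the same fits gave 0.04 and 0.12. The scalings differ by a nearly equal shift of every gene, so the sign of a member near 0 depends on the scaling while its place among all genes hardly does: 91.9% of tested genes had a lower log2 fold change than NDUFB7 with spike-in scaling and 92.4% with TMM scaling. Under TMM scaling with the limit of -0.7 NDUFB5 alone was called among the members, against 1.93% of all tested genes.

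**Figure D2:**
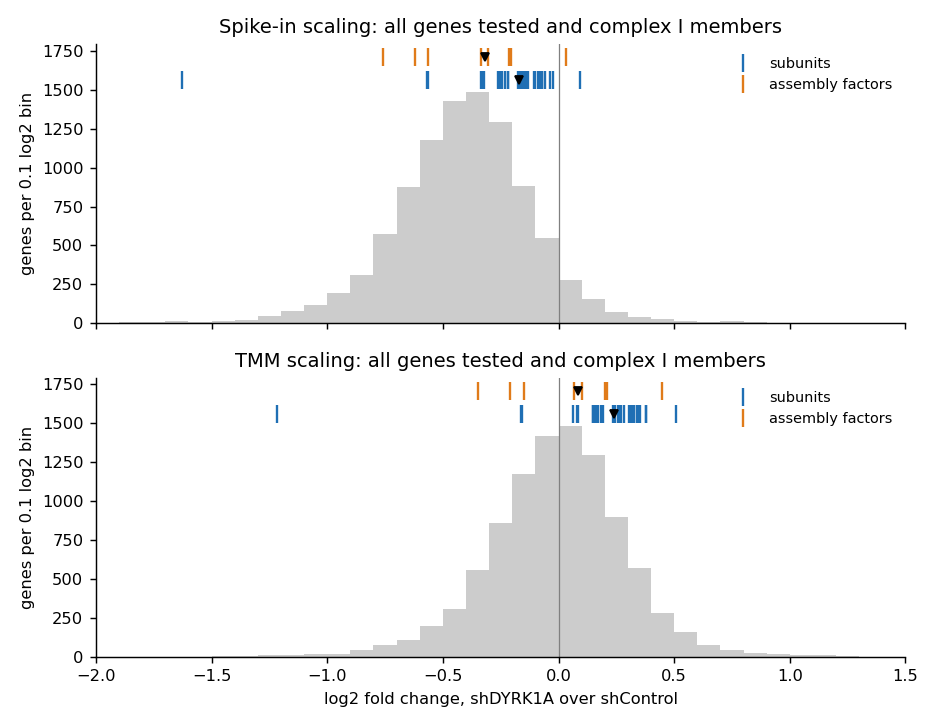
Distribution of the log2 fold changes of the 9697 tested genes in bins of 0.1 (grey), with spike-in scaling above and TMM scaling below; ticks are the 32 subunits (blue) and 8 assembly factors (orange), and black triangles their medians. The median of the subunits lies to the right of the peak of all genes in both panels, NDUFS1, NDUFS3 and NDUFA10 lie near the peak, and NDUFB5, NDUFB6 and NDUFA5 lie to its left.

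NDUFB5, an accessory subunit of the distal membrane arm (chr3:179604690-179627647 in hg38, plus strand), showed the largest change of any member. It had 4653, 4453 and 3594 normalized counts in the control libraries and 1498, 1290 and 1322 in shDYRK1A, in the order 1A, 1B, 1C that is kept for every gene. The groups did not overlap, and the highest shDYRK1A library was below the lowest shControl library by far more than the spread within either group. Its mean fell to 32.4% of control (log2 fold change -1.63, SE 0.15, edgeR adjusted p 1.93e-26), and with TMM scaling the log2 fold change was -1.22 (SE 0.05, adjusted p 2.85e-08). Only 18 of the 9697 tested genes had a lower log2 fold change with spike-in scaling, and DYRK1A itself was less reduced. Whether the fall of NDUFB5 came with loss of DYRK1A or with another effect of the hairpin was not tested. NDUFB5 took 10.9%, 10.7% and 10.4% of the reads counted on the 10 tested distal arm subunits in shControl, and 4.26%, 3.79% and 4.38% in shDYRK1A, a share that uses no size factor. MRPL47, a mitochondrial ribosomal protein gene that starts 36 bases away on the opposite strand, had a log2 fold change of -0.47 (SE 0.14, adjusted p 0.00238) with spike-in scaling and -0.06 (adjusted p 0.371) with TMM scaling. The difference between these neighbours was not tested.

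The other 9 tested subunits of the distal membrane arm ranged in log2 fold change from -0.56 to -0.04 with spike-in scaling. NDUFB6 had 2387, 2392 and 1976 normalized counts in shControl and 1639, 1469 and 1459 in shDYRK1A. Its groups did not overlap, and it fell to 67.6% of control (log2 fold change -0.56, SE 0.14, edgeR adjusted p 0.00036). NDUFB7 had 2779, 2961 and 2377 normalized counts against 2619, 2811 and 2485, groups that overlapped (log2 fold change -0.04, SE 0.14, adjusted p 0.825). NDUFB11, with 5952, 6272 and 5049 against 5896, 5632 and 5057 normalized counts, and NDUFB2, with 3983, 3748 and 3136 against 3611, 3598 and 3121, overlapped likewise. With TMM scaling 6 of the 10 were higher, the log2 fold change reaching 0.38 (SE 0.08, edgeR adjusted p 0.00263) in NDUFB7. NDUFB5 and NDUFB6 were lower, although NDUFB6 passed in only 1 of the 6 fits that left out 1 library. Of all tested genes, 27.3% were higher and 28.6% lower with TMM scaling.

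**Figure D3:**
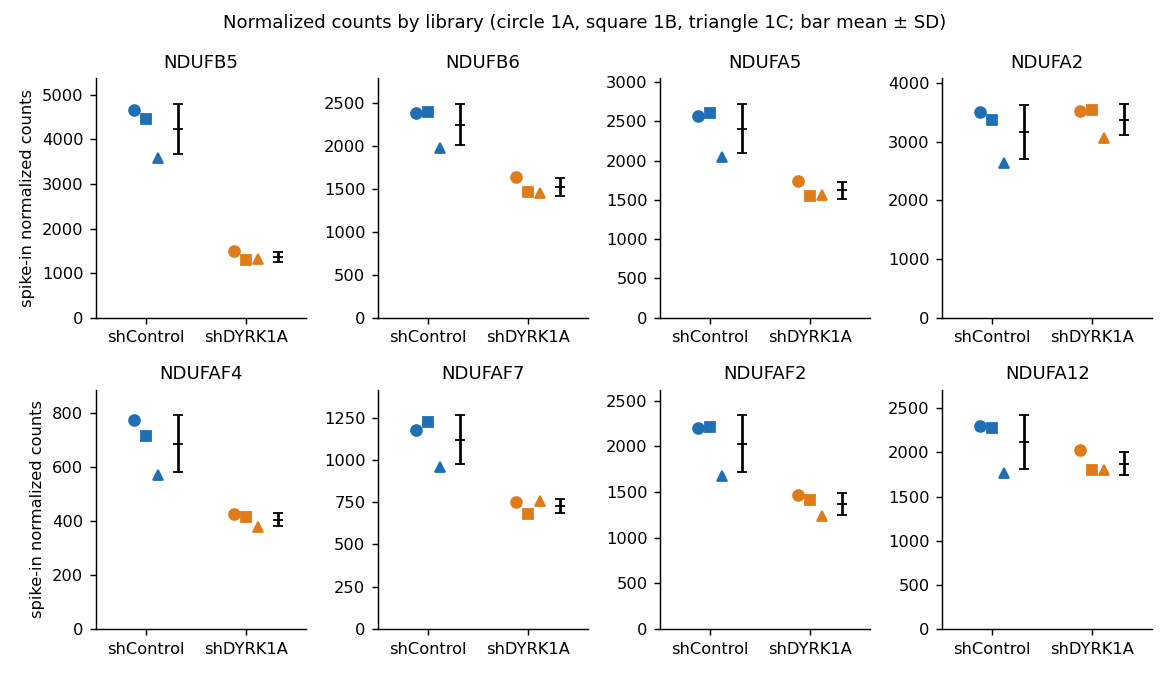
Spike-in normalized counts of 4 subunits and, below, of 3 assembly factors and NDUFA12 in each library (circle 1A, square 1B, triangle 1C), with the group mean and SD as a bar; axes start at 0. The shDYRK1A libraries lie below all shControl libraries for NDUFB5, NDUFB6, NDUFA5, NDUFAF4, NDUFAF7 and NDUFAF2 and overlap them for NDUFA2 and NDUFA12.

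The core subunits of the matrix arm carry the electrons from NADH to ubiquinone, and are given here in turn. NDUFV1, which binds NADH and the flavin, had 8734, 8600 and 7411 normalized counts in shControl and 7543, 7097 and 6600 in shDYRK1A, with shDYRK1A 1A above shControl 1C (log2 fold change -0.22, SE 0.13, edgeR adjusted p 0.133). NDUFS1, the large iron-sulfur subunit, had 6019, 5883 and 5198 against 4924, 3898 and 4730. Its groups did not overlap (log2 fold change -0.34, SE 0.14, adjusted p 0.0242). NDUFS3, in the part of the arm that leads to the ubiquinone site, had 4154, 3967 and 3256 normalized counts against 3268, 2996 and 2780, with shDYRK1A 1A just above shControl 1C (log2 fold change -0.33, SE 0.14, adjusted p 0.0302). Both calls rested on the full set of libraries, since each passed in only 2 of the 6 fits that left out 1 library.

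NDUFS7, near the ubiquinone site, and NDUFS8, an iron-sulfur subunit, did not pass the test on the spike-in scale. NDUFS7 had 2141, 2428 and 1887 normalized counts against 2138, 2029 and 1856, and NDUFS8 had 5860, 5872 and 4840 against 5186, 5415 and 4774; the groups overlapped for both. With TMM scaling NDUFV1, NDUFS7 and NDUFS8 were higher, by log2 fold changes of 0.19 to 0.31, while NDUFS1 (0.06, SE 0.05) and NDUFS3 (0.08, SE 0.06) did not pass the test.

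Accessory subunits of the matrix arm included both the highest fold change among the members and one of the lowest. NDUFA2, a thioredoxin-like subunit, had 3505, 3371 and 2641 normalized counts in shControl and 3526, 3545 and 3076 in shDYRK1A. The groups overlapped with spike-in scaling (log2 fold change 0.09, SE 0.14, edgeR adjusted p 0.554), and with TMM scaling the gene was higher (0.51, SE 0.08, adjusted p 0.000264). NDUFA5 had 2564, 2609 and 2046 normalized counts in shControl and 1745, 1549 and 1565 in shDYRK1A, without overlap, and fell to 67.3% of control (log2 fold change -0.57, SE 0.14, adjusted p 0.000292; with TMM scaling -0.16, SE 0.05, adjusted p 0.024). NDUFA9, which resembles short-chain dehydrogenases, had 548, 542 and 483 normalized counts against 577, 506 and 465, a log2 fold change of -0.02 (SE 0.16). The other 5 tested genes of this class had log2 fold changes from -0.26 to -0.14 with spike-in scaling, none past the test.

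In the proximal membrane arm, NDUFA10 had a log2 fold change of -0.32 (SE 0.14, edgeR adjusted p 0.0327) with spike-in scaling, and its groups overlapped. The call passed in only 2 of the 6 fits that left out 1 library and was lost with the replicate block (adjusted p 0.0503). The other 5 tested, NDUFA1, NDUFA3, NDUFA8, NDUFC1 and NDUFS5, lay between -0.22 and -0.08 and did not pass. Those same 5 were higher with TMM scaling, by log2 fold changes of 0.19 to 0.34, against 27.3% of all tested genes. Of the 6 fits that left out 1 library, NDUFC1 passed in only 2, NDUFA8 in 4 and NDUFS5 in 5. NDUFAB1, the mitochondrial acyl carrier protein, which sits in both arms, had a log2 fold change of -0.24 (SE 0.14, adjusted p 0.109) with spike-in scaling and of 0.17 (SE 0.06, adjusted p 0.0323; passing in 3 of the 6 fits) with TMM scaling. NDUFA4, named as a complex I subunit and since placed in complex IV, had 9527, 8799 and 7217 normalized counts in shControl and 8391, 8230 and 7658 in shDYRK1A (log2 fold change -0.07, SE 0.13, adjusted p 0.626), a value inside the range of the complex I subunits.

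Among the assembly factors, NDUFAF4, which acts early in building the matrix arm together with NDUFAF3, fell the most. NDUFAF4 had 772, 715 and 569 normalized counts in shControl and 424, 412 and 377 in shDYRK1A, without overlap. Its mean was 59.1% of control (log2 fold change -0.76, SE 0.16, edgeR adjusted p 2.51e-05), and with TMM scaling the log2 fold change was -0.35 (SE 0.09, adjusted p 0.00601). Without shControl 1A the spike-in value was -0.66, inside the limit of -0.7. NDUFAF3 itself had 1908, 2172 and 1666 normalized counts against 1604, 1784 and 1567, overlapping groups that did not pass (log2 fold change -0.21, SE 0.15, adjusted p 0.182).

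NDUFAF7, an arginine methyltransferase, had 1177, 1227 and 958 normalized counts in shControl and 750, 683 and 754 in shDYRK1A. The groups did not overlap, and the gene was lower with spike-in scaling (log2 fold change -0.62, SE 0.15, edgeR adjusted p 0.000242) and with TMM scaling (-0.21, SE 0.06, adjusted p 0.0154). NDUFAF5, which hydroxylates an arginine of NDUFS7, had 1329, 1229 and 973 against 1079, 1032 and 953. NDUFAF8, its partner protein, had 1144, 1447 and 963 against 1241, 1264 and 1124. Both overlapped between groups, with log2 fold changes of -0.20 (SE 0.15) and 0.03 (SE 0.15), and both were higher with TMM scaling (0.21, adjusted p 0.037, and 0.45, adjusted p 0.00348).

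NDUFAF1, of the assembly complex for the membrane arm, had 788, 724 and 677 normalized counts in shControl and 639, 563 and 532 in shDYRK1A. Its groups did not overlap, yet it missed the threshold (log2 fold change -0.34, SE 0.16, edgeR adjusted p 0.0551). NDUFAF6 had 891, 927 and 676 against 763, 608 and 648 normalized counts, with overlap (log2 fold change -0.30, SE 0.16, adjusted p 0.0758). Over the assembly factors, 4 of 8 had all shDYRK1A libraries below all shControl libraries, and so did 4 of the 32 subunits, against 63.6% of all tested genes on the spike-in scale. With TMM scaling 22 of 32 subunits and 2 of 8 assembly factors had all shDYRK1A libraries above all shControl libraries, against 30.7% of all tested genes.

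NDUFA12 and NDUFAF2 are paralogs, and NDUFAF2 holds the place of NDUFA12 in the growing complex until the subunit takes it. NDUFAF2 had 2199, 2217 and 1672 normalized counts in shControl and 1472, 1407 and 1239 in shDYRK1A, without overlap (log2 fold change -0.56, SE 0.15, edgeR adjusted p 0.000442). NDUFA12 had 2303, 2279 and 1762 against 2024, 1796 and 1798, with overlap (log2 fold change -0.17, SE 0.14, adjusted p 0.269). With TMM scaling NDUFA12 was higher (0.24, SE 0.06, adjusted p 0.00453) and NDUFAF2 had a log2 fold change of -0.15 (SE 0.08) that did not pass the test (adjusted p 0.124). The difference between the paralogs itself was not tested.

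Measures that need no size factor set the subunits beside the assembly factors within each library. The mean log2 level of the 32 tested subunits exceeded that of the 8 assembly factors by 1.56, 1.47 and 1.58 in shControl and by 1.68, 1.68 and 1.65 in shDYRK1A. The shDYRK1A libraries were all above the shControl libraries, and the mean difference between groups was 0.14 on the log2 scale, against within-group SDs of 0.057 and 0.0194. Summed over all 38 subunits, reads made up 2852, 2766 and 2741 CPM of human gene counts in shControl and 3165, 3533 and 3071 in shDYRK1A, again without overlap. The highest value was that of shDYRK1A 1B, the library with the most unmapped reads: the difference in summed level of 469.7 CPM became 331 CPM without it. The 8 assembly factors summed to 212, 223 and 203 CPM in shControl and 217, 248 and 216 in shDYRK1A, and these groups overlapped.

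**Figure D4:**
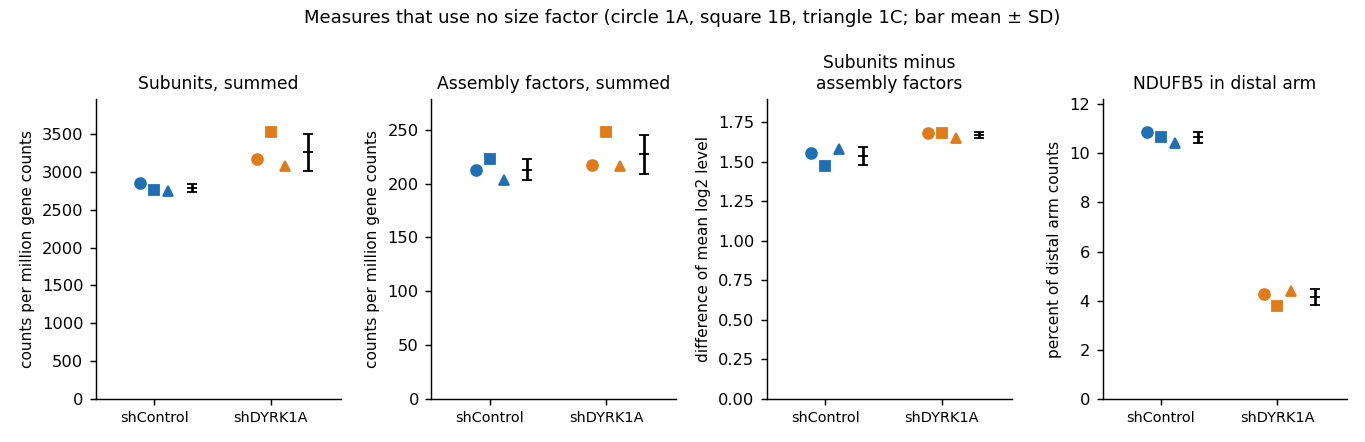
From left to right, in each library (circle 1A, square 1B, triangle 1C; bar mean ± SD): summed level in CPM of the 38 subunits, of the 8 assembly factors, the mean log2 level of subunits minus that of assembly factors, and NDUFB5 as a percent of distal arm counts. Axes start at 0; the groups overlap only in the panel of summed assembly factors.

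For the rest of the complex I gene set, medians lay nearer to that of all genes than the median of the nuclear subunits did. Of 12 assembly factors with other names, 7 (58.3%) were lower and 0 higher with spike-in scaling (median log2 fold change -0.35). That share is near the 63.4% of all tested genes called lower. With TMM scaling 2 of the 12 were lower and 2 higher, against 28.6% and 27.3% of all tested genes. The lowest was TMEM126B, of the same membrane arm assembly complex as NDUFAF1, with 2117, 2184 and 1704 normalized counts against 1188, 967 and 1006 (log2 fold change -0.93, SE 0.15, edgeR adjusted p 1.31e-08; with TMM scaling -0.52, adjusted p 1.59e-05). The highest was DMAC1, with 1467, 1510 and 1320 against 1372, 1230 and 1091 (-0.22, SE 0.15, adjusted p 0.186).

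The 7 mitochondrially encoded subunits had a median log2 fold change of -0.41 with spike-in scaling, close to that of all genes. Of these 7, 5 (71.4%) were lower, near the 63.4% of all tested genes. MT-ND6, the one of the 7 encoded on the other strand of the mitochondrial genome, had 12426, 9886 and 8320 normalized counts in shControl and 7366, 5047 and 4808 in shDYRK1A, without overlap (log2 fold change -0.83, SE 0.13, edgeR adjusted p 1.31e-08; with TMM scaling -0.43, adjusted p 0.00851). MT-ND4 and MT-ND5 did not pass with spike-in scaling (log2 fold changes -0.23 and -0.25) and were higher with TMM scaling (0.18 and 0.15). For comparison, of 40 nuclear subunits of complexes II to V, 16 (40.0%) were lower and 1 was higher with spike-in scaling. With TMM scaling 3 were lower and 19 (47.5%) higher, against 28.6% and 27.3% of all tested genes. The medians were -0.26 with spike-in scaling and 0.14 with TMM scaling. No test compared these lists with the complex I subunits.

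The members that share promoter letters did not move together by a single amount. The 6 with GCGCATGCG ran in log2 fold change from -0.57 (NDUFA5) to -0.10 (NDUFS7) with spike-in scaling. The 5 tested members with AAGATGGCG ran from -0.26 (NDUFS4) to 0.03 (NDUFAF8), and all 5 had a positive log2 fold change with TMM scaling, from 0.15 to 0.45. A positive sign was not particular to them, since only 6 of all 40 tested members had a negative log2 fold change with TMM scaling. Of the 9697 tested genes, 4811 had a negative one. The ranges for both strings are a description of few genes, and no test was made of either string.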

How the data were processed

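RNA-seq was made from 6 T98G libraries. Per the labels and the study's methods, the authors mixed human and Drosophila cells, prepared stranded mRNA libraries, mapped reads with STAR (genome builds hg38 and dm3 in the submitters' processing notes) and deposited raw gene counts per library. They also deposited a table of the same counts divided by 1 fly-derived size factor per library (unit: signal, normalized counts); dividing raw by normalized values returned that factor. A further deposited table holds the authors' own DESeq2 comparison and was not used. The annotation release used for counting is not given in the sources used here; gene starts and ends of 44 of 46 members equalled GENCODE v29.

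Counts of 9697 genes with a mean normalized level above 10 CPM were fitted with edgeR 4.0.16 (robust quasi-likelihood, R 4.3.3) with these factors, and p-values were adjusted by Benjamini-Hochberg over all of them. The same fit with TMM factors is given beside it. Each SE is the log2 fold change, without its sign, divided by the square root of the test's F statistic. Alternatives were median-of-ratios factors, DESeq2 1.42.0, other filters, the replicate letter as a block and leaving out each library. The fit was also run on simulated data in which the size factors were known. That simulation cannot show how well the spike-in factors scale these libraries. The members and lists were chosen with earlier results of these data known. Values in every library are given for the 5 lowest and 5 highest tested subunits, all NDUFAF genes, the core subunits, NDUFA12 and NDUFA4, apart from 1 member that is counted in the totals but not reported here; others by range and count. Transcript lengths and shared bases come from the principal GENCODE v29 transcript, and promoters from RefSeq. Libraries of one group differed by more than sampling noise.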

Additional observations from a re-analysis of the deposited data

How the results depend on the processing

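Scaling to the human genes in place of the fly spike-in turned the direction of most members. With TMM and median-of-ratios scaling respectively, the median log2 fold change of subunits was 0.24 and 0.24 and that of assembly factors 0.085 and 0.088. Higher calls were then 22 and 23 subunits and 2 and 2 assembly factors, lower calls 3 and 3 subunits, and 0 and 0 assembly factors passed the limit of -0.7. Over all genes these scalings called 2769 and 2719 lower and 2652 and 2709 higher, and past the limit 187 and 184 lower and 121 and 125 higher. Log2 fold changes of named members turned positive: NDUFA12 0.24 and 0.24, NDUFA4 0.34 and 0.34, NDUFA9 0.38 and 0.38, NDUFB11 0.35 and 0.36, NDUFB2 0.34 and 0.34, NDUFB7 0.38 and 0.38, NDUFS1 0.065 and 0.068, NDUFS3 0.079 and 0.082, NDUFS7 0.31 and 0.31, NDUFS8 0.31 and 0.31, NDUFV1 0.19 and 0.19, NDUFAF1 0.066 and 0.069, NDUFAF3 0.20 and 0.21, NDUFAF5 0.21 and 0.21, NDUFAF6 0.10 and 0.11. The cause of the difference between scalings was not tested.

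Looser filters, filterByExpr and a mean of 1 count, test more genes and called 336 and 370 genes higher, 2516 and 2598 lower past the limit and 219 and 263 higher past it. They moved no count of members by over 1.5 times. DESeq2's Wald test kept the direction of every named member and added NDUFAF1 (adjusted p 0.0236) to the lower calls, with 7 subunits and 4 assembly factors lower.

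Leaving out 1 library at a time gave 3 to 16 subunits lower, 3 to 7 assembly factors lower and 0 to 2 of them past the limit; over all genes the ranges were 4049 to 7552 lower, 69 to 114 higher, 908 to 2093 lower past the limit and 16 to 32 higher past it. Members near 0 changed sign in some of these fits: NDUFA2 ranged from -0.024 to 0.17, NDUFA4 from -0.18 to 0.015, NDUFA1 from -0.16 to 0.031, NDUFA9 from -0.11 to 0.046, NDUFB11 from -0.14 to 0.0074, NDUFB2 from -0.17 to 0.00053, NDUFB7 from -0.12 to 0.034 and NDUFAF8 from -0.10 to 0.20. The subunits minus assembly factors difference stayed between 0.10 and 0.16 and the subunit share difference between 331 and 562 CPM.

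Libraries share the letters 1A to 1C across groups. Deviations of same-letter libraries correlated at 0.151, 0.0728 and 0.128, every library best with its own letter, which is a hint from the data and no stated pairing. With the replicate block 5 subunits were lower (NDUFA10 missed, adjusted p 0.0503), 3 assembly factors were lower, and 5911 genes were lower and 98 higher. With TMM scaling the block gave 3 subunits lower and 21 higher, and 3 assembly factors lower and 3 higher.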

Other observations

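The table also held 13 genes whose names begin with NDUF outside the naming rule, all below the filter: pseudogenes, antisense RNAs and NDUFA4L2. The processed pseudogene NDUFV2P1 had 186, 174 and 147 normalized counts in shControl and 151, 104 and 137 in shDYRK1A, against 45, 44 and 36 and 23, 33 and 30 for NDUFV2 itself. The pseudogene thus carried more assigned reads than its parent gene in every library, and reads of a near-identical copy cannot be assigned with certainty. NDUFA4L2, a paralog of NDUFA4 known as a hypoxia-induced gene, had 77.9, 88.5 and 67.2 normalized counts against 56.7, 74.1 and 58.5, with overlap.

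Opposite-strand neighbours that start within 1000 bases were tested genes for 15 of the 40 tested members, and their log2 fold changes with spike-in scaling ran from -1.20 (CCNE2, beside NDUFAF6 at -0.30) to 0.05 (TEPSIN, beside NDUFAF8 at 0.03).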
